A study of Mus musculus with 29 samples.

Results

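The fully grown oocytes of 4-week-old female mice described here (FGO 4W) came from Dhx36fl/fl; Zp3-Cre females, called CKO, and from Dhx36fl/fl females without the Cre, called WT. Both genotypes carry the floxed alleles, so they differ in the Cre. They were 3 CKO and 3 WT libraries, the count columns with the FGO 4W name, and were compared over all 49997 genes of the deposited count table. The whole series holds 29 libraries in 10 groups of genotype by stage and age, and 2 other stages served as a comparison: FGO 3W, fully grown oocytes from females aged 3 weeks (2 CKO and 2 WT libraries), and GO 2W, growing oocytes from females aged 2 weeks (3 CKO and 3 WT libraries). Each library was made by Smart-seq2, a full-length poly(A) RNA method, from 10 cells pooled in 1 tube. Zp3-Cre becomes active in oocytes that have begun to grow, so RNA made before that time may come from undeleted alleles. The labels do not tie the replicates to different females, so the spread between tubes that enters a p-value may be technical.

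DHX36 is a helicase that unfolds G-quadruplexes, 4-stranded folds that guanine-rich RNA or DNA can take. Fully grown oocytes are arrested in meiotic prophase and have largely stopped transcription. They live on stored maternal mRNA, which is masked, later polyadenylated and translated, or cleared during meiotic maturation. A level in a fully grown oocyte therefore reflects what was made during growth and what has been kept since.

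Total counts were 19103776 to 23051315 in CKO libraries and 23323996 to 25292336 in WT libraries, and log2 levels correlated at 0.957 to 0.964 within CKO, 0.955 to 0.969 within WT and 0.900 to 0.918 between the genotypes. After a filter on low counts 21768 genes were tested. Levels are CPM, a gene's counts relative to the total of its library scaled by TMM size factors, and they are not corrected for gene length. Changes are log2 of CKO over WT from an edgeR quasi-likelihood fit, and "called" means an adjusted p under 0.05. The fit takes 1 spread per gene from all 29 libraries, so a gene that varies at another stage can have a wide SE here. Pooled cells give 1 value per tube, so fewer cells with an RNA and less of it per cell cannot be told apart.

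At a small number of genes 1 WT library and 1 CKO library stood apart from their group. In WT replicate 2, 36 genes were at most 1/10 of their level in both other WT libraries although those held at least 5 CPM, against 0 such genes in each of the other 5 libraries. Stk32a is an example, with 84.6, 0.61 and 117 CPM in WT, beside 156, 148 and 149 CPM in CKO. In the opposite direction, 25 genes were at least 10-fold higher in CKO replicate 3 than in both other CKO libraries, against 0 to 5 such genes in the other libraries, and 17 of the 25 were called higher in CKO. Among them is Slc35d2, a nucleotide sugar transporter gene, with 1.31, 1.87 and 102 CPM in CKO and 1.37, 1.45 and 1.8 CPM in WT, and its change without CKO replicate 3 was 0.04 (adjusted p 0.968). Without WT replicate 2 the test called 2047 genes higher and 2687 lower, and without CKO replicate 3 it called 1980 and 2428. Genes of these sets are marked where they are named.

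The cells carried the RNA of oocytes. All 15 oocyte markers were tested, with 1 called higher, 8 lower and 6 not called (another test, limma on log2(FPKM + 1), gave higher and lower counts of 1 and 4, 1 library left out 0 to 1 and 5 to 8). Their summed level ran from 15053 to 18633 CPM in CKO and from 22797 to 25905 CPM in WT. Markers of granulosa, cumulus and theca cells summed to 495 to 556 CPM in CKO and 443 to 508 CPM in WT, and of the 22 tested 2 were called higher, 1 lower and 19 not called (limma 3 and 2, 1 library left out 1 and 0 to 2). Serpine2 held most of that sum, at 438 ± 21.2 CPM in CKO and 418 ± 34.6 CPM in WT (SD, n = 3 each). Cyp19a1 averaged 37 CPM in CKO and 31.6 CPM in WT, Kitl 5.23 and 4.87, and Inha 3.44 and 4.04, and none was called. Bex4 averaged 5.37 CPM in CKO and 1.75 CPM in WT and Gja1 2.36 and 2.08, and neither was called. Some members were near 0: the granulosa gene Amh averaged 0.292 CPM in CKO and 0.123 CPM in WT and Foxl2 0.0346 CPM in CKO and 0.199 CPM in WT. Fshr, which encodes the receptor of follicle-stimulating hormone, had 25.8, 17.2 and 17.8 CPM in CKO and 0.305, 1.53 and 2.2 CPM in WT, and its ranges did not overlap (3.91, SE 0.95, adjusted p 0.00284). Hsd3b1 and Cyp11a1, of steroid synthesis, had 2.88, 2.7 and 3.1 CPM in CKO and 1.03, 0.839 and 0.661 CPM in WT, and 1, 1.24 and 1.27 CPM in CKO and 4.76, 1.95 and 3.64 CPM in WT. Hsd3b1 was not called without CKO replicates 1, 2 and 3 or WT replicates 1, 2 and 3, each left out in turn (1.63 to 1.94), and Cyp11a1 was not called without CKO replicate 1 or WT replicate 1, each left out in turn (-1.45 to -1.25). Markers of blood, stroma and endothelium summed to 37.5 to 39.8 CPM in CKO and 49.9 to 57.9 CPM in WT, with 1 of 12 tested called higher, 2 lower and 9 not called (limma 2 and 0, 1 library left out 1 and 1 to 2). Pecam1 held most of that sum, at a mean of 31.2 CPM in CKO and 47 CPM in WT, and was not called. The haemoglobin genes and the collagen genes Col1a1 and Col1a2 did not pass the filter on low counts. Ptprc, the leukocyte antigen CD45, had 0.615, 2.21 and 2.8 CPM in CKO and 0 counts in all 3 WT libraries, which made it at least 49.4-fold higher in CKO against a floor of 3 counts over the WT group. The receptor genes Kdr and Pdgfra, the members called lower, averaged 0.0566 ± 0.0981 and 0.0744 ± 0.0698 CPM in CKO and 1.4 ± 0.754 and 0.48 ± 0.225 CPM in WT (SD, n = 3 each). Pdgfra was not called without CKO replicates 1 and 3 or WT replicates 1 and 2, each left out in turn (-2.68 to -2.04). What part such cells have in the results below was not tested.

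Dhx36 itself (chromosome 3, 62468015 to 62507034, GRCm38) was not lower in the CKO libraries. It had 82.9, 86 and 86.8 CPM in CKO and 67, 73.9 and 64.9 CPM in WT, so each CKO library stood above each WT library. The change was 0.31 on the log2 scale (SE 0.44) with an edgeR adjusted p of 0.655, and the exact two-sided permutation test over the 6 libraries gave p = 0.1, the smallest that 3 against 3 allows. The edgeR fit takes its spread from all 29 libraries, and in CKO metaphase II oocytes Dhx36 averaged 1426 ± 1292 CPM (SD). Fitted by edgeR on the 6 libraries alone, the change was 0.38 (SE 0.10) with an adjusted p of 0.012. Counts cover the whole gene and the labels do not name the floxed exons, so the level does not check the deletion.

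In CKO, 2567 genes were higher and 3215 lower, so 26.6% of tested genes were called, 11.8% higher and 14.8% lower. Changes of at least 2-fold were reached by 1989 of the higher genes (9.14% of tested genes) and 1909 of the lower ones (8.77%), and changes of at least 4-fold by 1086 and 786. The 3 CKO libraries did not overlap the 3 WT libraries in 46.7% of tested genes, and in 5507 of the 5782 called genes. Lack of overlap is thus usual for a called gene, and genes picked by size of change or by level had to have it. In the edgeR fit direction went with level. Among genes under 1 CPM 5.5% were higher and 4.69% lower in CKO, among genes of 1 to 10 CPM 17.6% and 13.5%, among genes of 10 to 100 CPM 14.7% and 24%, and among genes of at least 100 CPM 8.18% and 27.1%. Protein-coding genes were called higher in 12.7% and lower in 18% of 15204 cases, long non-coding RNA genes in 11.4% and 8.39% of 3959, and pseudogenes in 6.71% and 5.11% of 2192. Some genes were near 0 in 1 genotype. Under 1 CPM in WT and at least 5 CPM in CKO were 111 called genes, and under 1 CPM in CKO and at least 5 CPM in WT were 77. With limma on log2(FPKM + 1), where the median change of all genes was 0.074, 4192 genes were higher and 2734 lower, so that 60.5% of calls were higher against 44.4% in the edgeR fit. FPKM are the deposited values, relative to gene length and library total, and beside the list counts of edgeR stand those of this other test, higher first, and, where a count moved by over 1.5 times or the balance of calls turned, their range over the 6 edgeR fits with 1 library left out. The lists were not matched for level. A list of genes above 10 CPM may thus have more members lower than the 14.8% of all tested genes through level alone.

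**Figure D1:**
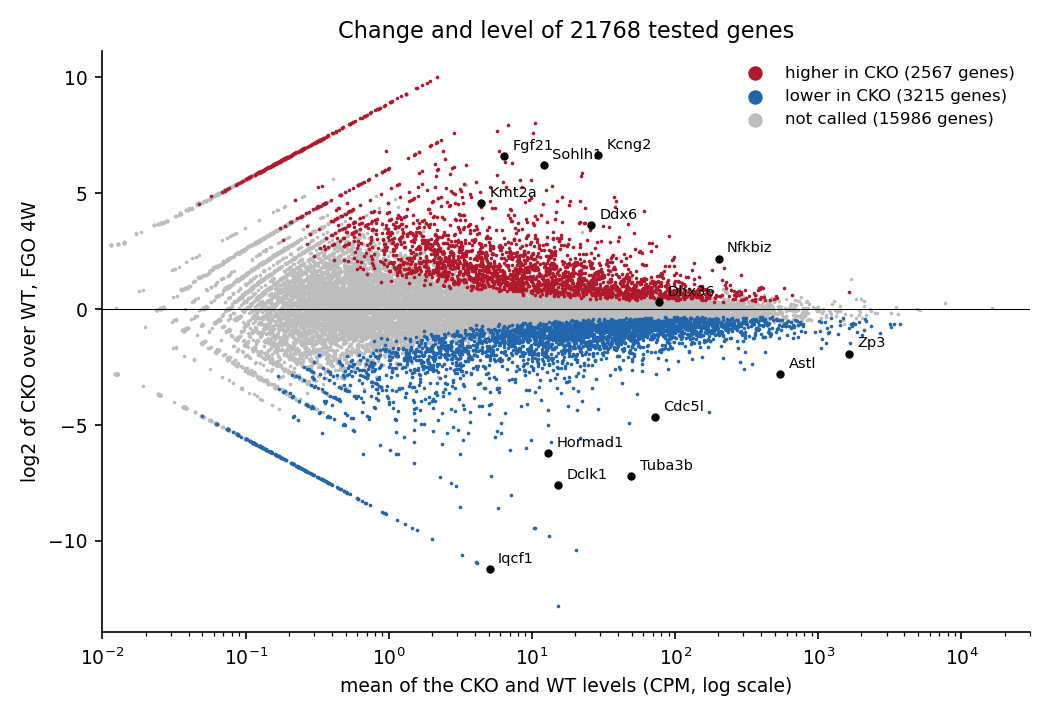
Change at FGO 4W (vertical axis, log2 of CKO over WT) against the mean of the CKO and WT levels (horizontal axis, CPM, log scale) for 21768 tested genes, with called genes in red (2567 higher in CKO) and blue (3215 lower in CKO). Blue points outnumber red ones above 10 CPM, and the straight outer rows at low levels are genes with no or few counts in 1 genotype, whose fitted change depends on the prior count.

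The genes with the highest changes were nearly silent in WT oocytes. Sohlh1 (chromosome 2, 25842995 to 25847248), a transcription factor gene of early oocytes, had 24.2, 25.9 and 21.3 CPM in CKO and 0.152, 0.725 and 0.0735 CPM in WT (6.22, SE 0.64, adjusted p 5.09e-08). Fgf21, which encodes a hormone of the stress and fasting response, had 8.04, 14.1 and 15.8 CPM in CKO and 0, 0.381 and 0 CPM in WT (6.60, SE 0.80, adjusted p 6.88e-07). Iqub, an IQ motif and ubiquitin domain gene, had 13.3, 13 and 14.6 CPM in CKO and 0.0762, 0.0763 and 0 CPM in WT (7.97, SE 0.98, adjusted p 8.86e-07). In all 3 the lowest CKO library was above the highest WT library, which the rule that picked them asked for. Efs, which encodes a docking protein of signalling by Src-family kinases, Kcng2, a modifier subunit of voltage-gated potassium channels, and Slfn8, of the Schlafen family, rose by 7.59, 6.65 and 6.14. Vax2os, a non-coding RNA antisense to Vax2, rose by 7.70, and overlapping transcripts cannot be told apart where strand was not used. Usp17lb and Usp17le, deubiquitinase genes of a family of near-identical copies, rose by 6.36 and 6.22, and a read of 1 copy of this family may be assigned to another. Nckap5los was called on CKO replicate 3, with 0.154, 1.24 and 33.8 CPM in CKO and 0.114, 0.114 and 0.0735 CPM in WT, and belongs to the 25 genes of that library. Without CKO replicate 3 its change was 2.75 (adjusted p 0.24).

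At the other end, genes that WT oocytes held were at or near 0 in CKO. Iqcf1, an IQ motif gene, had 0 counts in all 3 CKO libraries and 11.1, 11.2 and 8.08 CPM in WT, at least 264-fold lower in CKO. Extl1, which encodes a glycosyltransferase of heparan sulphate synthesis, also had 0 counts in CKO and 4.61, 9.88 and 5.14 CPM in WT, at least 171-fold lower. Small counts are mostly even, as when each end of a pair is counted, so a floor of 3 counts stands for fewer pairs and these bounds may be too high, and they cover counting error only. Gsto2, a glutathione transferase gene, had 2 counts over the CKO group and 22.8, 16.9 and 23.5 CPM in WT, a ratio of 827 with an exact 95% counting interval of 229 to 6834. Lcp2, an adaptor gene of immune cell signalling, had a ratio of 451 (125 to 3733), Skint5 494 (88.3 to 19559) and Abca9, a lipid transporter gene, 213 (58.6 to 1766). Defb8, a defensin gene, had 0 counts in CKO, and Tktl2, a transketolase-like gene, had 2, but both are among the genes that were low in WT replicate 2, with 8.91, 0.0763 and 15.4 CPM and 36, 2.06 and 40.8 CPM in WT. Dclk1, a kinase that binds microtubules, had 0.231, 0.0692 and 0.17 CPM in CKO and 34.1, 29.6 and 27 CPM in WT (-7.58, SE 0.52, adjusted p 1.3e-10). Tuba3b (chromosome 6, 145615963 to 145621477), an alpha-tubulin gene whose copies share sequence, had 0.423, 1 and 0.552 CPM in CKO and 92.9, 105 and 97.7 CPM in WT (-7.20, SE 0.45, adjusted p 1.95e-11). The genotypes were apart by more than 25 CPM in every pair of libraries for both genes.

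Ranked by CPM instead of by change, the genes that rose at least 2-fold at the highest levels were Eif4h, Gna14, Nfkbiz, Gsta4, Hsph1 and Ifrd1. Eif4h, a cofactor of the eIF4A helicase in translation initiation, had 433, 407 and 425 CPM in CKO and 158, 156 and 142 CPM in WT (1.47, SE 0.32, adjusted p 0.00106). Nfkbiz, an atypical I-kappa-B gene, had 343, 332 and 316 CPM in CKO and 66.9, 84.2 and 68.1 CPM in WT (2.18, SE 0.34, adjusted p 2.82e-05). Gna14, a G protein alpha subunit gene, the heat shock gene Hsph1 and the transcriptional coregulator gene Ifrd1 rose by 1.78, 1.16 and 1.24. Gsta4, a glutathione transferase gene, rose by 1.04 but was not called without WT replicates 1 and 3, each left out in turn (0.88). Those that fell at least 2-fold were Zp1, Zp2 and Zp3 of the egg coat together with Rdx, Umodl1 and Ldhb. Rdx encodes radixin, a linker of actin to the membrane, and had 970.2, 1015 and 701 CPM in CKO and 2303, 2699 and 2372 CPM in WT (-1.46, SE 0.23, adjusted p 2.25e-05). Ldhb, a lactate dehydrogenase subunit gene, had 1529, 1983 and 1818 CPM in CKO and 3731, 3593 and 3513 CPM in WT (-1.02, SE 0.23, adjusted p 0.00146). For both genes every CKO library lay below every WT library, which the rule that picked them asked for.

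**Figure D2:**
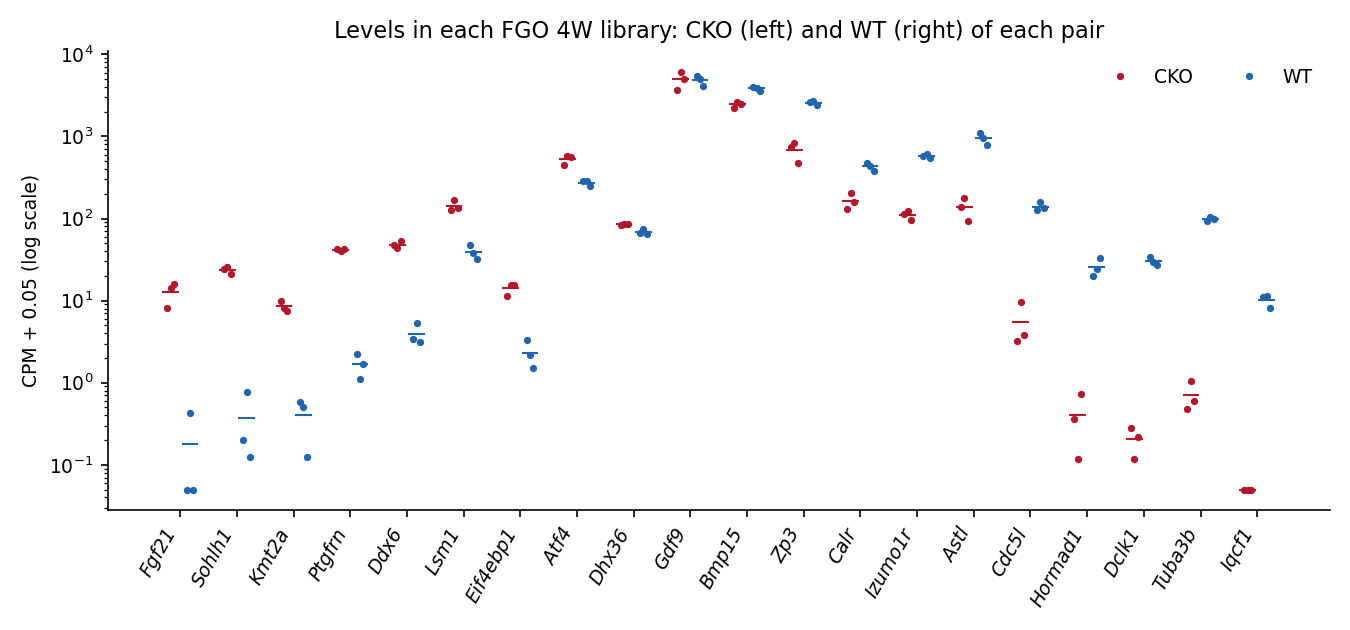
Level of 20 named genes in each FGO 4W library (vertical axis, CPM + 0.05 on a log scale), with CKO in red on the left and WT in blue on the right of each pair, and a line at the mean of 3 libraries. Sohlh1 and Fgf21 are above 8 CPM in each CKO library and under 1 CPM in each WT library, Tuba3b and Dclk1 show the opposite, and Gdf9 overlaps between the genotypes.

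The egg coat and the cortical granules under it form the extracellular layer that sperm meet and the means of changing it after fertilization, and most of their genes were lower in CKO. Of 12 tested zona pellucida and cortical granule genes 8 were called lower and 4 not called, with a median change of -0.91, against 0.00 over all tested genes, and limma also called 8 lower. Zp3 (chromosome 5, 135980105 to 135988624), a zona glycoprotein gene, had 739, 839 and 471 CPM in CKO and 2658, 2662 and 2410.1 CPM in WT (-1.92, SE 0.30, adjusted p 2.39e-05). Zp1 had 501, 789 and 499.9 CPM in CKO and 1772, 1718 and 1462 CPM in WT, and Zp2 had 1052, 1640.1 and 1170.4 CPM in CKO and 3005, 2976 and 2335 CPM in WT. In each of these genes all CKO libraries were below all WT libraries. Astl encodes ovastacin, the cortical granule protease that cleaves ZP2 after fertilization, and fell furthest in the list, with 137, 179 and 93.2 CPM in CKO and 1098, 956 and 794 CPM in WT (-2.80, SE 0.23, adjusted p 2.1e-09). Fetub, the gene of the ovastacin inhibitor fetuin-B, fell by 1.01, Tdrp by 0.74, Padi6 by 0.62 and the calreticulin gene Calr by 1.39. Expressed per length, Zp3 averaged 639.9 ± 182 FPKM in CKO and 2119.8 ± 151 FPKM in WT (SD, n = 3 each), and Astl 67.4 ± 22 FPKM in CKO and 413 ± 77 FPKM in WT.

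Secreted signals and their receptors showed the same direction in fewer members. Of 17 tested, 1 was higher, 8 lower and 8 not called, with a median change of -0.28 (limma 1 and 3, 1 library left out 1 and 5 to 7). Bmp15, an oocyte growth factor that acts on cumulus cells, had 2241, 2652 and 2450.3 CPM in CKO and 3986, 3914 and 3623 CPM in WT (-0.65, SE 0.17, adjusted p 0.00499), but its partner Gdf9 had 3704, 6149 and 4952 CPM in CKO and 5504, 4952 and 4094 CPM in WT and was not called (0.03, adjusted p 0.961), with overlapping ranges. Fgf8, another oocyte ligand, had 64, 55.1 and 59.1 CPM in CKO and 161, 173 and 195 CPM in WT (-1.57, SE 0.30, adjusted p 0.00026). Kit, the receptor of the granulosa ligand KITL, fell by 0.86, and Oosp3, an oocyte-secreted protein gene, by 0.64. Acvr1b, a type I activin receptor gene, was the member that rose, with 28.1, 27.7 and 22.9 CPM in CKO and 8.65, 11.7 and 10.9 CPM in WT (1.33, SE 0.35, adjusted p 0.00523).

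The transcription factors that build the oocyte programme did not move as a block. Of 24 tested 4 were higher, 5 lower and 15 not called, with a median change of 0.02 (limma 7 and 5). Beside Sohlh1, Taf4b, a TFIID subunit gene of the ovary, rose by 1.39, and Obox7 and Gata6 were the other members called higher. Gata6 rose by 1.69, but was not called without CKO replicates 1 and 2 or WT replicates 1, 2 and 3, each left out in turn (1.53 to 1.76). Lhx8, a homeobox gene of primordial follicles, had 107, 126 and 131 CPM in CKO and 262, 266 and 258 CPM in WT (-1.11, SE 0.16, adjusted p 5.65e-06). Gtf2a1l, which encodes a germ cell form of TFIIA, fell by 1.68, Sp110 by 1.28 and the pluripotency gene Sall4 by 0.60, and Foxo3, which keeps primordial follicles dormant, fell by 1.04. Figla and Nobox, which direct the genes of the early oocyte including those of the zona, had changes of 0.12 and -0.07 and were not called. Figla had 19.3, 36.2 and 27.1 CPM in CKO and 27.2, 27.3 and 21.8 CPM in WT, so its ranges overlapped.

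The subcortical maternal complex is a protein assembly under the egg membrane that the early embryo needs, and its genes, with the related oocyte Nlrp genes, were mostly lower where they were called: 1 of 22 was higher, 10 lower and 11 not called, with a median of -0.61 (limma 1 and 5, 1 library left out 0 to 1 and 6 to 9). Ooep had 1179.9, 1253 and 1491 CPM in CKO and 1934, 2153 and 2341 CPM in WT (-0.71, SE 0.15, adjusted p 0.000562). Tle6 had 636, 781 and 903 CPM in CKO and 1643, 1589.6 and 1435 CPM in WT (-1.01, SE 0.27, adjusted p 0.00563). Padi6, a peptidylarginine deiminase gene of the cytoplasmic lattices, had 2147, 2902 and 2896 CPM in CKO and 4335, 3966 and 3906 CPM in WT, and Nlrp5, also known as MATER, had 526, 795 and 775 CPM in CKO and 1539.5, 1307 and 1199 CPM in WT (-0.95, SE 0.30, adjusted p 0.0195). CKO libraries lay below WT libraries in these 4 genes. Nlrp4a and Nlrp9b fell by 0.92 and 0.97, and Nlrp4c was the member that rose (0.82), all 3 in families of similar sequence. The change of Nlrp4c was not called without CKO replicates 2 and 3 or WT replicates 2 and 3, each left out in turn (0.68 to 0.86), that of Nlrp5 was not called without CKO replicate 1 or WT replicate 1, each left out in turn (-0.84 to -0.78) and that of Padi6 was not called without CKO replicate 1 (-0.49). Khdc3 had 806, 537 and 1009 CPM in CKO and 424, 377 and 1006 CPM in WT and was not called (0.38), with 1 WT library near the highest CKO one.

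**Figure D3:**
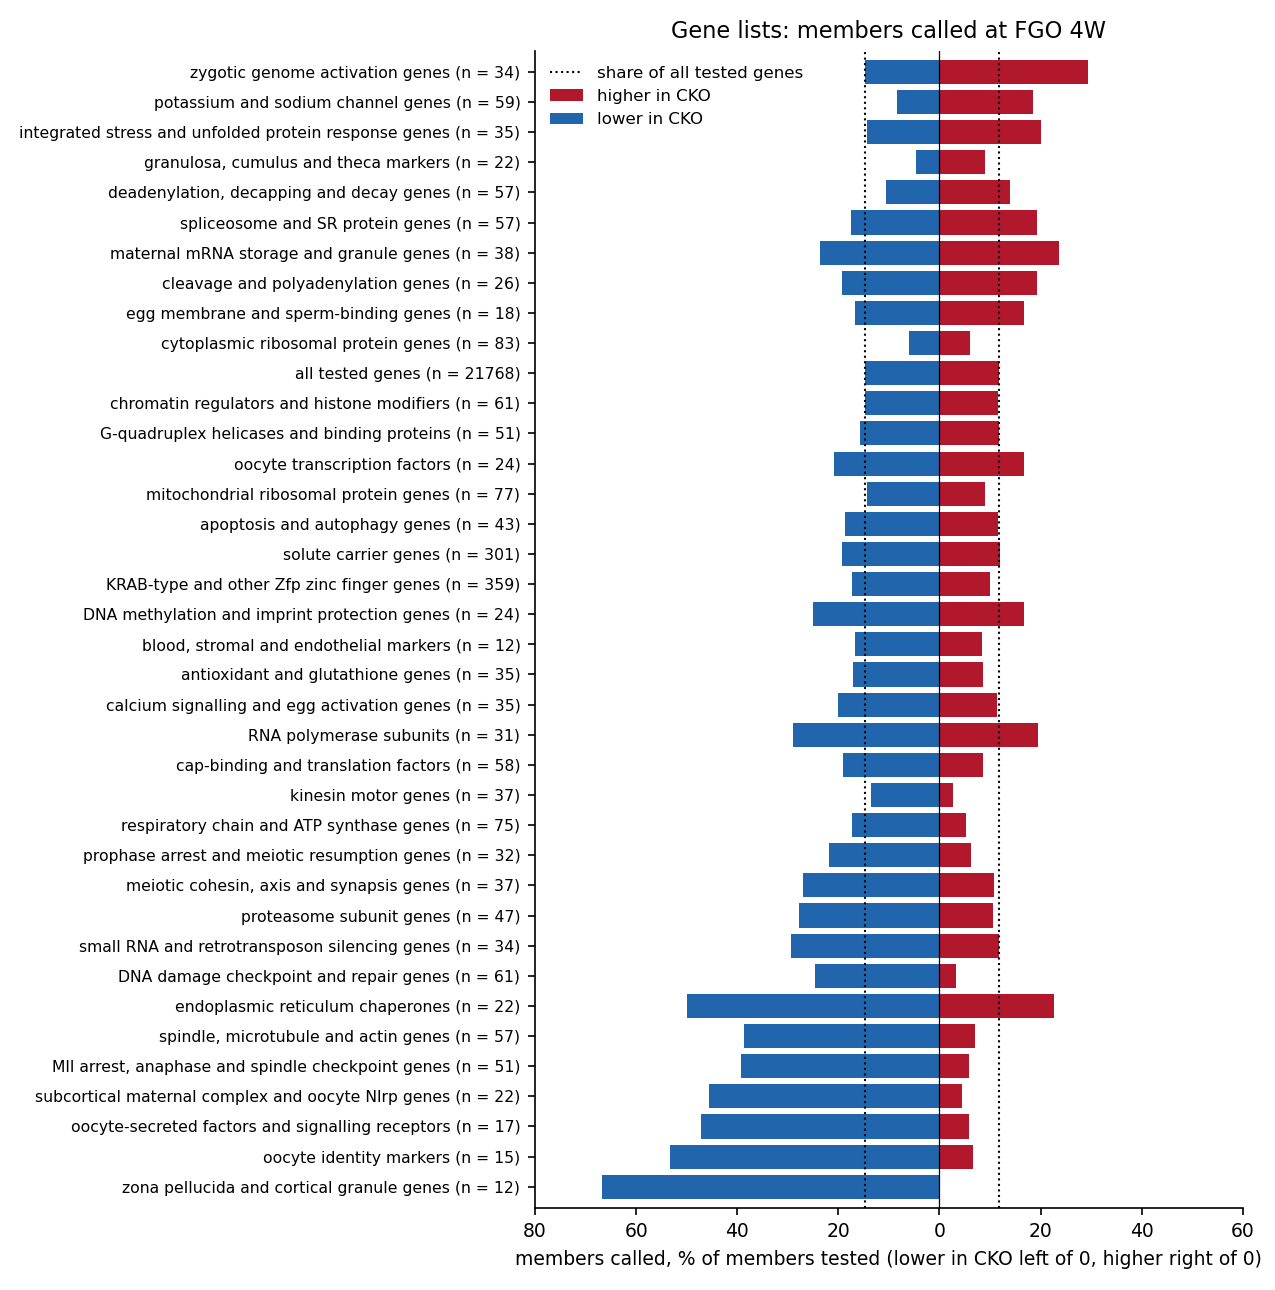
Share of tested members called lower (blue, left of 0) and higher (red, right of 0) in CKO for 37 gene lists and all tested genes, in percent of members tested, with dotted lines at the shares of all tested genes (11.8% higher, 14.8% lower). Zona and cortical granule genes have 66.7% of 12 members lower, zygotic genome activation genes 29.4% of 34 members higher, and cytoplasmic ribosomal protein genes the lowest share of calls, 12% of 83. The lists are not matched for level.

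Stored mRNA is held in the oocyte by proteins that mask it, and genes of this machinery moved both ways. Of 38 tested 9 were higher, 9 lower and 20 not called, with a median of 0.06 (limma 11 and 6). Ddx6 (chromosome 9, 44602983 to 44640731), the helicase of P-bodies and a repressor of translation, had the lowest adjusted p of the list, with 47.4, 43.4 and 52.9 CPM in CKO and 3.31, 5.26 and 3.12 CPM in WT (3.62, SE 0.33, adjusted p 9.09e-09), and each CKO library was more than 8 times each WT library. G3bp1, a stress granule nucleator, had 106, 129 and 118 CPM in CKO and 45.5, 47.9 and 43.2 CPM in WT (1.37, SE 0.19, adjusted p 5.13e-06). Fmr1, the fragile X mRNA-binding protein, had 15.6, 18.3 and 16.4 CPM in CKO and 6.25, 3.36 and 3.42 CPM in WT (1.95, SE 0.24, adjusted p 9.44e-07). On the other side, Eif4enif1, whose product 4E-T holds repressed mRNA on the cap-binding protein, had 377, 444 and 435 CPM in CKO and 717, 728 and 663 CPM in WT (-0.75, SE 0.11, adjusted p 1.47e-05). Pabpc1l, the poly(A)-binding protein of oocytes, had 113, 153 and 159.8 CPM in CKO and 366, 347 and 303 CPM in WT (-1.25, SE 0.21, adjusted p 5.73e-05). The somatic form Pabpc1 rose by 1.37 while Pabpc1l fell by 1.25. Zar1 and Zar1l, which encode mRNA-binding proteins of the maternal store, fell by 1.13 and 0.88, but Zar1 was not called without WT replicate 3 (-0.78) and Zar1l was not called without CKO replicate 2 (-0.84). Ybx2, the masking protein MSY2, and Cpeb1, which binds the cytoplasmic polyadenylation element, were not called (0.48 and -0.46).

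DHX36 acts on G-quadruplexes, so transcripts of named genes were searched for the letters that can form one, defined here as 4 stretches of 3 or more G (GGG), neighbours being 1 to 7 bases apart (matches do not overlap). The search covered the sense strand of 1 GENCODE vM21 transcript per gene, with positions counted from its 5′ end. A match is a description of the letters, not a fold that was measured. Ddx6 is shown because it held 4 matches in the 3′UTR of its 6065-base transcript. Atf4, Lsm1, Ooep and Eif4enif1 are shown as examples with 1 in the 5′UTR, the first pair higher and the second pair lower in CKO. Acvr1b, Kcnq3 and Uhrf2, all higher in CKO, also had a 5′UTR match and are not shown, so the examples are no tally of direction. G runs are in capitals and sequences run 5′ to 3′.
Ddx6 3′UTR, position 4032: GGGaGGGtGGGagtGGGG
Ddx6 3′UTR, position 4869: GGGGtGGGGtGGGGtGGGctGGGtGGG
Ddx6 3′UTR, position 5065: GGGGtGGGaGGGGaGGG
Ddx6 3′UTR, position 5618: GGGcaGGGcaaGGGaGGGGtGGGcctGGG
Atf4 5′UTR, position 177: GGGttGGGGcGGGcgaGGG
Lsm1 5′UTR, position 53: GGGtcaatccGGGcctcGGGtcGGG
Ooep 5′UTR, position 118: GGGGcGGGGtcGGGctGGG
Eif4enif1 5′UTR, position 42: GGGGcctGGGtgaGGGGccaGGGG

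Over all genes with a transcript sequence (14753 of those tested), a motif stood in 22.1% of transcripts called higher in CKO, 15.1% of those called lower and 19.3% of those not called, against 18.9% of all. The 3′UTR held one in 13% of higher, 7.47% of lower and 9.68% of uncalled transcripts, the 5′UTR in 7.83%, 6.09% and 7.26%, and the coding sequence in 4.18%, 2.54% and 4.35%. Longer transcripts hold more motifs, and the order of higher above lower was present in each of 3 equal classes of transcript length: 10.5% against 8.9% in the shortest, 24% against 13.6% in the middle and 31.3% against 21.6% in the longest class. Median lengths were 2890 bases for higher, 3001 for lower and 2831 for uncalled transcripts. Genes with a 3′UTR motif had a median change of 0.08 and genes with no motif in the transcript -0.09. In the shortest class the uncalled transcripts (9.89%) lay between, and in the longest they were at 29.5%, close to the higher ones. Promoters, taken as 250 bases before to 50 after the start in RefSeq on GRCm38.p6 and read on both strands, held a motif in 27.7% of higher, 26.1% of lower and 26% of all 15250 genes. These shares are descriptions across genes, which are not independent replicates, and no test was run on them. Transcripts were not matched for level, although the direction of a call went with level, so the part of level in this order was not tested.

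**Figure D4:**
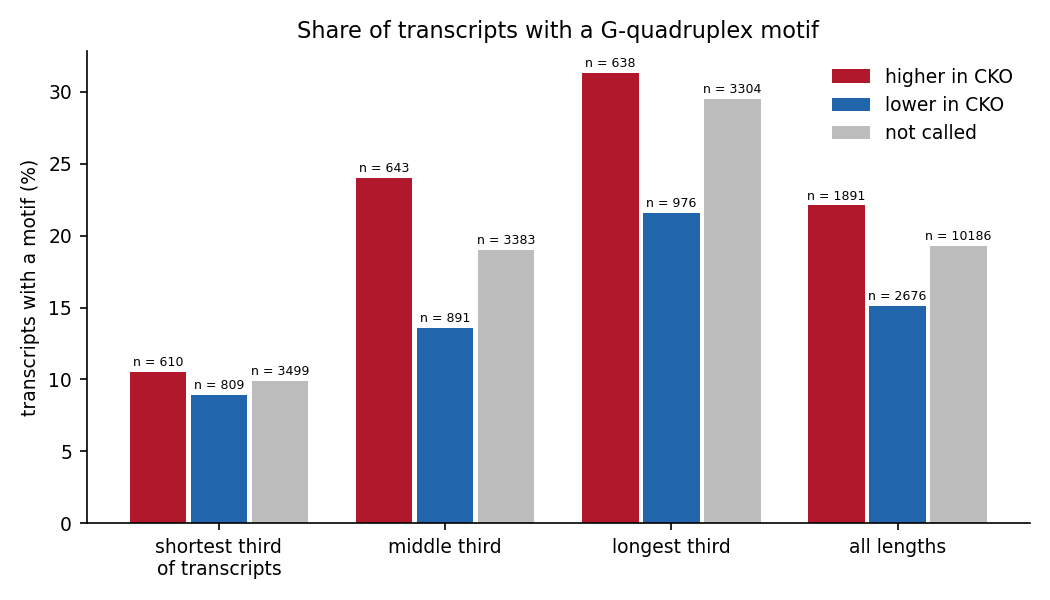
Share of transcripts with at least 1 G-quadruplex motif (vertical axis, percent) among genes called higher in CKO (red), lower in CKO (blue) and not called (grey), by class of transcript length (3 equal classes) and over all lengths, with the number of transcripts above each bar. In each class the red bar is above the blue one, with 24% against 13.6% in the middle class. The groups are not matched for level.

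Clearance of maternal mRNA runs through deadenylation, decapping and decay, and the share called was near that of all genes: of 57 tested 8 were higher, 6 lower and 43 not called, with a median of 0.00 (limma 14 and 6, 1 library left out 6 to 9 and 6 to 7), and without CKO replicate 1 there were 6 higher and 7 lower. Lsm1, a subunit of the ring that promotes decapping, had 126, 168 and 134 CPM in CKO and 47.7, 38.4 and 32.3 CPM in WT (1.86, SE 0.18, adjusted p 2.72e-08). Smg5, of nonsense-mediated decay, had 10.7, 12.4 and 11.1 CPM in CKO and 1.9, 1.56 and 1.32 CPM in WT (2.83, SE 0.41, adjusted p 8.41e-06). Btg4, which brings the CCR4-NOT deadenylase to mRNA during maturation, had 1664, 1378 and 1335 CPM in CKO and 2350.3, 2893 and 2842 CPM in WT (-0.89, SE 0.14, adjusted p 3.29e-05), and its CKO libraries were all below its WT libraries. Exosc9, a subunit of the RNA exosome, had 7.08, 11.3 and 11.2 CPM in CKO and 48.8, 42.1 and 44 CPM in WT (-2.18, SE 0.21, adjusted p 2.29e-08). Upf3b, which links nonsense-mediated decay to exon junctions, fell by 1.69, Cnot1, the scaffold of CCR4-NOT, by 0.73, and the deadenylase gene Cnot7 was not called (-0.56). Genes of cleavage and polyadenylation were called in 5 of 26 cases each way (median -0.02, limma 5 and 2, 1 library left out 3 to 4 and 3 to 4). Nudt21, a subunit of cleavage factor I, had 34, 54.7 and 38.5 CPM in CKO and 16.8, 13.4 and 13.7 CPM in WT (1.54, SE 0.21, adjusted p 4.26e-06), its partner Cpsf7 rose by 2.02 and Cstf3 by 0.70, while Cpsf1 and Cpsf2, of the complex that reads the AAUAAA signal, fell by 1.12 and 0.81.

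Translation factors were called in 27.6% of 58 cases, close to the 26.6% of all genes, with 5 higher, 11 lower and 42 not called (median -0.12, limma 8 and 7, 1 library left out 3 to 5 and 8 to 9). Eif4ebp1, which encodes 4E-BP1, an inhibitor that competes for the cap-binding protein, had 11.3, 15.4 and 15.6 CPM in CKO and 3.24, 2.1 and 1.47 CPM in WT (2.64, SE 0.33, adjusted p 1.11e-06), and its genotypes did not overlap. Eif4e itself was not called (0.39). Eef2k, the kinase that inhibits elongation factor 2, had 203, 168 and 195 CPM in CKO and 385, 375 and 366 CPM in WT (-0.995, SE 0.19, adjusted p 0.000334). The initiation factor subunit gene Eif3d fell by 1.04 and Eif2b3, of the exchange factor of eIF2, by 0.68.

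Genes of the integrated stress and unfolded protein response were split, with 7 of 35 higher, 5 lower and 23 not called (median 0.08, limma 12 and 3, 1 library left out 3 to 7 and 2 to 4), and without WT replicate 3 there were 3 higher and 4 lower. Atf4, the transcription factor at the centre of that response, had 444, 577 and 557 CPM in CKO and 286, 286 and 248 CPM in WT (0.94, SE 0.15, adjusted p 3.53e-05). Besides Fgf21, its known targets Chac1 and Ddit3 were higher by 1.31 and 0.68, and Mbtps1, a protease that activates ATF6, by 0.65. For Chac1 the change was not called without CKO replicates 2 and 3 or WT replicates 1, 2 and 3, each left out in turn (1.05 to 1.41), and for Ddit3 it was not called without CKO replicates 2 and 3 or WT replicates 1 and 3, each left out in turn (0.56 to 0.71). The eIF2 kinase gene Eif2ak4 had 32.2, 35 and 36.3 CPM in CKO and 59.9, 56.3 and 56.3 CPM in WT (-0.74, SE 0.15, adjusted p 0.000386). Ppp1r15b, a phosphatase subunit that removes the mark from eIF2, fell by 1.19. Chaperones and folding enzymes of the endoplasmic reticulum had the highest share of calls among the 37 lists, 72.7%: of 22 tested 5 were higher, 11 lower and 6 not called, with a median of -0.59 (limma 6 and 10, 1 library left out 2 to 4 and 10 to 11). Pdia3, a disulphide isomerase gene that works with calreticulin, had 28.6, 44.4 and 19.2 CPM in CKO and 159.7, 148 and 117 CPM in WT (-2.20, SE 0.26, adjusted p 4.52e-07). Calr had 129, 206 and 158 CPM in CKO and 481, 433 and 382 CPM in WT (-1.39, SE 0.17, adjusted p 7.23e-07). Pdia4 had 88.2, 109 and 93.8 CPM in CKO and 219, 260.2 and 240.2 CPM in WT, Dnajc3 fell by 0.77 and Uggt1, the glucosyltransferase that tests glycoprotein folding, by 1.51. Hspa5, the BiP chaperone, had 151, 299 and 214 CPM in CKO and 233, 220.0 and 183 CPM in WT and was not called (0.06), while Hsp90b1 rose by 0.59 and Selenos by 3.21.

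Genes that hold the oocyte in prophase and let it resume meiosis were called in 9 of 32 cases, 2 higher and 7 lower (median -0.11, limma 4 and 5, 1 library left out 1 and 4 to 7). That is 28.1%, close to the 26.6% of all tested genes. Gpr3, the receptor that keeps cyclic AMP high, had 50.5, 51.2 and 58.2 CPM in CKO and 121, 94.9 and 106 CPM in WT (-1.01, SE 0.18, adjusted p 0.000106). Gnas, the G protein subunit downstream of it, fell by 1.17. Prkacb, a catalytic subunit of the cyclic AMP-dependent kinase, rose, with 11, 10.8 and 6.59 CPM in CKO and 3.12, 3.66 and 3.09 CPM in WT (1.53, SE 0.23, adjusted p 2.01e-05). Ccnb3 had 29.2, 26.8 and 27.3 CPM in CKO and 72.4, 80.2 and 69.8 CPM in WT and fell by 1.42, Ccnb2 fell by 0.49, and Ccnb1, Cdk1 and the inhibitory kinase gene Wee2 were not called (0.33, -0.68 and -0.15). The genes of metaphase II arrest, anaphase and the spindle checkpoint were lower in 20 of 51 cases, higher in 3 and not called in 28 (median -0.40, limma 4 and 14, 1 library left out 0 to 2 and 15 to 18). Cdc20, an activator of the anaphase-promoting complex, had 119, 82.9 and 69.1 CPM in CKO and 198, 208 and 195 CPM in WT (-1.15, SE 0.21, adjusted p 0.00017). Fbxo43, which encodes EMI2, the inhibitor that holds the egg at metaphase II, had 123, 100.5 and 105 CPM in CKO and 216, 229.9 and 229 CPM in WT (-1.04, SE 0.15, adjusted p 1.01e-05). Pttg1, securin, had 829, 999 and 957 CPM in CKO and 1489, 1489.7 and 1566 CPM in WT (-0.71, SE 0.12, adjusted p 5.18e-05). Ranges of CKO and WT were apart in all 3. The kinetochore gene Ndc80 fell by 0.94 and Anapc1 by 0.72, and Mad2l1, of the checkpoint, was not called (-0.04). Mos, the kinase of metaphase arrest, fell by 0.74 but was not called without CKO replicates 2 and 3 or WT replicates 2 and 3, each left out in turn (-0.77 to -0.65).

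Cohesin, chromosome axis and synapsis genes were called higher in 4 and lower in 10 of 37 cases (median -0.33, limma 7 and 8, 1 library left out 1 to 4 and 7 to 9). Hormad1 (chromosome 3, 95559677 to 95587863), an axis protein gene of early prophase, had 0.308, 0.0692 and 0.68 CPM in CKO and 19.7, 24 and 32.7 CPM in WT (-6.21, SE 0.52, adjusted p 2.77e-09), so that each CKO library held under 1 CPM. Smc1b, the meiotic cohesin subunit that holds the chromosome arms of oocytes, had 4.69, 4.18 and 5.91 CPM in CKO and 16.8, 18.5 and 20.9 CPM in WT (-1.93, SE 0.28, adjusted p 6.87e-06). Msh4 and Tex12, of crossing over and of the synaptonemal complex, fell by 1.32 and 1.48. Tex15, a germ cell gene of meiotic recombination, was called lower with 1.38, 2.97 and 1.1 CPM in CKO and 49.6, 3.55 and 47.7 CPM in WT, and is 1 of the 36 genes low in WT replicate 2: without that library its change was -4.72 (adjusted p 8.58e-06).

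The spindle and the actin cytoskeleton had more genes lower than higher, with 4 of 57 higher, 22 lower and 31 not called (median -0.40, limma 7 and 15, 1 library left out 2 to 3 and 17 to 21). Tuba3a, another alpha-tubulin copy beside Tuba3b, had 90.9, 91.4 and 64 CPM in CKO and 396, 209 and 443 CPM in WT (-2.09, SE 0.23, adjusted p 1.29e-07). Tubg2, of the gamma-tubulin ring, had 59.9, 80.7 and 76.1 CPM in CKO and 233, 182 and 185 CPM in WT (-1.47, SE 0.18, adjusted p 9.44e-07). Spire1, which nucleates the actin that moves the spindle to the cortex, had 109, 91.2 and 113 CPM in CKO and 296, 339.8 and 303 CPM in WT (-1.58, SE 0.17, adjusted p 9.87e-08). Its partner Fmn2 rose, with 119.6, 105 and 117 CPM in CKO and 55.5, 68.2 and 60.3 CPM in WT (0.89, SE 0.32, adjusted p 0.0366). Both genes had ranges that did not overlap, but the change of Fmn2 was not called without CKO replicates 1, 2 and 3 or WT replicates 1, 2 and 3, each left out in turn (0.82 to 0.97). Among 37 kinesin genes 1 was higher, 5 lower and 31 not called (median -0.17, limma 5 and 1, 1 library left out 1 and 2 to 4). The share called was 16.2%, under the 26.6% of all tested genes. Kif23 and Kif14, of the midzone of the dividing spindle, fell by 0.69 and 0.69, Kif2c, a microtubule depolymerase gene, by 0.75 and Kif1b by 0.81, while Kif16b, an endosome motor gene, rose by 0.80. The change of Kif14 was not called without CKO replicates 1, 2 and 3 or WT replicates 1 and 3, each left out in turn (-0.71 to -0.64), that of Kif23 was not called without CKO replicates 2 and 3 or WT replicates 1 and 2, each left out in turn (-0.70 to -0.64) and that of Kif2c was not called without CKO replicate 1 (-0.67).

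DNA methylation and imprint protection genes were higher in 4, lower in 6 and not called in 14 of 24 cases (median -0.05, limma 4 and 6, 1 library left out 2 to 4 and 4 to 6). Dnmt3a, the enzyme that sets methylation in the growing oocyte, had 144, 132 and 149.9 CPM in CKO and 279.8, 301 and 270.0 CPM in WT (-0.999, SE 0.22, adjusted p 0.00124), and its cofactor Dnmt3l fell by 0.71 and its homologue Dnmt3b by 1.11. Tet1, an oxidase of methylated cytosine, had 16.5, 18 and 15.5 CPM in CKO and 5.79, 4.5 and 5.33 CPM in WT (1.68, SE 0.27, adjusted p 3.19e-05), while Tet3, Dnmt1 and the protector gene Dppa3 were not called (0.19, -0.55 and -0.29). Nsd1, a histone H3 lysine 36 methyltransferase gene, fell by 0.77 and Uhrf2 rose by 2.08. Chromatin regulators were called in 26.2% of 61 cases, 7 higher and 9 lower (limma 12 and 7, 1 library left out 5 to 8 and 7 to 9), close to the 26.6% of all genes, and without CKO replicate 3 there were 8 higher and 7 lower. Kmt2a, a histone H3 lysine 4 methyltransferase gene, had 9.92, 7.99 and 7.52 CPM in CKO and 0.533, 0.458 and 0.0735 CPM in WT (4.57, SE 0.78, adjusted p 6.93e-05). Kdm5b, a demethylase of the same mark, rose by 1.71. Atrx, a remodeller of heterochromatin, had 63.8, 52.2 and 51 CPM in CKO and 152, 255 and 176 CPM in WT (-1.80, SE 0.21, adjusted p 4.76e-07). Ezh1 fell by 0.79 and Smarca2, a SWI/SNF ATPase gene, by 0.63.

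The list for zygotic genome activation mixes genes of the early embryo with others, such as the activator Dppa2, that WT oocytes already held. Its members were higher in 10, lower in 5 and not called in 19 of 34 cases, with a median change of 1.53 (limma 14 and 4), the highest of the 37 lists. Summed over the members the level was lower in CKO, at 2926 to 3585 CPM against 4244 to 4921 CPM in WT. Tcstv3 (chromosome 13, 120316862 to 120318261), of a family expressed at the 2-cell stage, had 101, 120.2 and 125 CPM in CKO and 13.9, 19.9 and 14.4 CPM in WT (2.85, SE 0.25, adjusted p 4.95e-09). Tcstv1 had 149.5, 161 and 154 CPM in CKO and 75.1, 71 and 65.3 CPM in WT (1.14, SE 0.16, adjusted p 4.17e-06), although reads of these similar copies may be exchanged. Nr5a2, an orphan nuclear receptor gene, had 48.8, 52.2 and 44.2 CPM in CKO and 22.7, 27 and 22.4 CPM in WT (1.01, SE 0.15, adjusted p 1.58e-05). Ccne1, cyclin E1, rose by 1.95. Of the 10 higher members 4 were Usp17l copies. Zscan4d rose by 2.29. Dppa2 and Dppa4, a pair of activators of 2-cell genes, fell by 1.01 and 1.91. Dppa2 had 99.2, 97.6 and 87.1 CPM in CKO and 183, 189 and 199.5 CPM in WT, so its genotypes were apart.

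Genes of small RNA pathways and retrotransposon silencing were higher in 4, lower in 10 and not called in 20 of 34 cases (median -0.10, limma 8 and 8, 1 library left out 2 to 5 and 8 to 10). Ago2, the slicing Argonaute, had 10, 15 and 14.1 CPM in CKO and 39.5, 41 and 39 CPM in WT (-1.61, SE 0.20, adjusted p 8.86e-07). Ago3 had 48.3, 48.1 and 52.1 CPM in CKO and 97.1, 109 and 106 CPM in WT (-1.07, SE 0.14, adjusted p 2.35e-06). Mael, a factor of the piRNA pathway, had 46.4, 48.4 and 41.1 CPM in CKO and 140.2, 126 and 164 CPM in WT (-1.66, SE 0.18, adjusted p 1.27e-07). Ranges were apart in each of them. Piwil1 fell by 1.95 and the helicase gene Mov10l1 by 1.99, Ddx4, the germ cell helicase VASA, rose by 1.34 but was not called without WT replicate 3 (1.27), and Dicer1 was not called (0.35).

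Among DNA damage checkpoint and repair genes 2 of 61 were higher, 15 lower and 44 not called (median -0.35, limma 6 and 9, 1 library left out 1 to 3 and 10 to 14). The share called was 27.9%, close to the 26.6% of all tested genes. Lower were 24.6%, beside 24% of all tested genes at 10 to 100 CPM. Rpa1, which coats single-stranded DNA, had 94, 145 and 132 CPM in CKO and 332, 321 and 301 CPM in WT (-1.36, SE 0.15, adjusted p 1.6e-07). Xrcc1, a scaffold of single-strand break repair, had 75.7, 73.7 and 51.3 CPM in CKO and 149, 140.4 and 147 CPM in WT (-1.12, SE 0.17, adjusted p 1.9e-05). Fanci, Lig1 and Rev3l, of crosslink repair, ligation and translesion synthesis, fell by 1.45, 1.19 and 0.91. Trp63, whose product monitors DNA damage in oocytes, was a member that rose, with 42.5, 52.4 and 52.8 CPM in CKO and 26.8, 34.5 and 21.2 CPM in WT (0.84, SE 0.21, adjusted p 0.00307). Chek2, the kinase that activates it, was not called (0.01). Proteins that bind or unfold G-quadruplexes other than DHX36 were called in 27.5% of 51 cases, 6 higher and 8 lower (median -0.17, limma 12 and 5, 1 library left out 5 to 7 and 5 to 9). Cnbp, a nucleic acid chaperone gene, had 765, 775 and 740.0 CPM in CKO and 411, 401 and 388 CPM in WT (0.93, SE 0.18, adjusted p 0.000315). Dhx9, a related helicase gene, rose by 1.84.

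On the egg membrane 3 of 18 genes were higher, 3 lower and 12 not called (median -0.11, limma 3 and 3). Izumo1r (chromosome 9, 14885814 to 14903951), which encodes JUNO, the receptor of the sperm protein IZUMO1, had 114, 124 and 96.4 CPM in CKO and 579, 615 and 543 CPM in WT (-2.38, SE 0.26, adjusted p 1.57e-07). The highest CKO library was far below the lowest WT library. Cd9, the tetraspanin needed for fusion, had 144, 192 and 179 CPM in CKO and 150.1, 138 and 138 CPM in WT and was not called (0.27). Ptgfrn, a partner protein of tetraspanins, had 42.8, 39.6 and 42.6 CPM in CKO and 2.21, 1.07 and 1.62 CPM in WT (4.67, SE 0.46, adjusted p 2.48e-08). Tspan8 rose by 2.50 and Tspan3 by 1.11, and Cd151 fell by 1.32. Calcium signalling genes were called higher in 4 and lower in 7 of 35 cases (median -0.18, limma 4 and 6, 1 library left out 0 to 2 and 6 to 7). That is 31.4%, beside 26.6% of all tested genes. Stim2, a sensor of calcium in the endoplasmic reticulum, had 10.8, 12.6 and 10.2 CPM in CKO and 32.8, 55.3 and 39.4 CPM in WT (-1.92, SE 0.20, adjusted p 5.33e-08). The channel gene Orai3 fell by 1.53, the mitochondrial uniporter Mcu by 0.86 and the plasma membrane pump Atp2b3 by 1.76. Slc39a6, a zinc transporter gene, fell by 0.73, and Itpr1, the inositol trisphosphate receptor of eggs, was not called (0.16).

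RNA polymerase subunits were called in 48.4% of 31 cases, 6 higher and 9 lower (median -0.10, limma 9 and 8, 1 library left out 3 to 5 and 6 to 8), and with RLE size factors 9 higher and 7 lower. Polr2c, of RNA polymerase II, had 345, 333 and 339 CPM in CKO and 534, 535 and 549 CPM in WT (-0.67, SE 0.15, adjusted p 0.00116). Polr3c and Polr3f, of RNA polymerase III, fell by 1.02 and 0.83, Polr2e by 0.77, and Twistnb, of RNA polymerase I, rose by 0.96. Splicing genes were split, with 11 of 57 higher, 10 lower and 36 not called (median -0.06, limma 19 and 6). Cdc5l, of the core of the active spliceosome, had 3.19, 9.54 and 3.78 CPM in CKO and 126, 158 and 133 CPM in WT (-4.65, SE 0.56, adjusted p 6.28e-07). Snrpb, a shared core protein of the small nuclear particles, had 56.7, 68.7 and 59.7 CPM in CKO and 19.8, 7.7 and 8.93 CPM in WT (2.34, SE 0.37, adjusted p 2.31e-05). Sf3b4 and Sf3b6 of the branch site complex rose by 1.47 and 1.85, and the splicing regulator gene Tra2b had 182, 186 and 186 CPM in CKO and 78.9, 92.1 and 89.1 CPM in WT (1.09, SE 0.12, adjusted p 1.28e-07). For these genes no CKO library entered the WT range.

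Among large housekeeping assemblies, cytoplasmic ribosomal protein genes were called in 12% of 83 cases, 5 higher and 5 lower (median -0.02, limma 14 and 1, 1 library left out 3 to 5 and 2 to 5). Rpl29 was an exception in size, with 3.77, 1.83 and 2.21 CPM in CKO and 24.5, 28.8 and 28.4 CPM in WT (-3.38, SE 0.49, adjusted p 7.43e-06). Rps27 rose by 1.31, Rpl27a by 0.75 and the p53-inducible copy Rps27l by 0.61, and Rpl5 fell by 0.59 but was not called without CKO replicate 1 or WT replicate 3, each left out in turn (-0.57 to -0.51). Ribosomal protein genes have many processed copies in the genome, which can take or give reads. Mitochondrial ribosomal protein genes were higher in 7 and lower in 11 of 77 cases (median -0.14, limma 17 and 8, 1 library left out 5 to 7 and 7 to 10), and with RLE size factors in 9 and 8. The share called was 23.4%, beside 26.6% of all tested genes. Mrps26 had 60.6, 57.2 and 57.6 CPM in CKO and 15, 9.8 and 13.1 CPM in WT (2.21, SE 0.21, adjusted p 1.28e-08) and Mrps2 had 30.2, 25.6 and 32.3 CPM in CKO and 60.5, 91.8 and 65.1 CPM in WT (-1.30, SE 0.18, adjusted p 3.83e-06). Mrpl15 rose by 1.11, and Mrps23 and Mrps36 fell by 0.90 and 0.92. Nuclear genes of the respiratory chain and ATP synthase were higher in 4 and lower in 13 of 75 cases (median -0.09, limma 6 and 8, 1 library left out 2 to 4 and 8 to 12). That is 22.7%, also near the share of all tested genes. Uqcrc1, a core protein of complex III, had 55.6, 67.4 and 63.9 CPM in CKO and 12.9, 7.28 and 5.03 CPM in WT (2.89, SE 0.33, adjusted p 2.88e-07). Ndufs4, of complex I, had 24.9, 31.9 and 25.8 CPM in CKO and 61, 78.6 and 76 CPM in WT (-1.38, SE 0.18, adjusted p 2.28e-06), with Ndufb5 and Atp5o lower by 0.83 and 1.09. Proteasome genes were higher in 5 and lower in 13 of 47 cases (median -0.17, limma 7 and 9, 1 library left out 2 to 5 and 9 to 12). Psmc4, an ATPase of the cap, had 104, 111 and 108 CPM in CKO and 235, 240.3 and 237 CPM in WT (-1.14, SE 0.20, adjusted p 0.000107). Psmd2, Psmc5 and the inhibitor gene Psmf1 fell by 0.78, 0.81 and 0.93, and Psmd13 rose by 2.23.

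Antioxidant genes were higher in 3, lower in 6 and not called in 26 of 35 cases (median -0.09, limma 6 and 6, 1 library left out 1 to 3 and 5 to 6). The share called was 25.7%, close to the 26.6% of all tested genes. G6pdx, the first enzyme of the pentose phosphate pathway and a source of NADPH, had 393, 471 and 454 CPM in CKO and 996, 1124 and 913 CPM in WT (-1.20, SE 0.14, adjusted p 4.52e-07), whereas Pgd, a later enzyme of it, rose by 0.90. Gpx4, which reduces lipid peroxides, fell by 1.11, the glutaredoxin gene Glrx by 0.98 and Prdx5 by 0.90. Apoptosis and autophagy genes were higher in 5 and lower in 8 of 43 cases (median -0.09, limma 6 and 6, 1 library left out 4 to 5 and 4 to 7), and without CKO replicate 3 in 5 and 4. In the main fit that is 30.2% called. Sqstm1, the autophagy receptor p62, had 75.1, 77.7 and 73.5 CPM in CKO and 36, 36.3 and 28.7 CPM in WT (1.16, SE 0.19, adjusted p 3.79e-05). Atg14 rose by 0.74, and Ctsd, a lysosomal protease gene, had 18.4, 25.5 and 25.4 CPM in CKO and 78.1, 51.3 and 49 CPM in WT (-1.36, SE 0.21, adjusted p 1.53e-05). Apaf1, the scaffold of the apoptosome, fell by 1.56 and the survival gene Bcl2l1 by 0.73.

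Channels and carriers held some of the switch-like changes. Of 59 tested potassium and sodium channel genes 11 were higher, 5 lower and 43 not called, with a median of 0.33 (limma 15 and 4, 1 library left out 8 to 9 and 1 to 4). The share called was 27.1%, close to the 26.6% of all tested genes. Kcng2 had 68, 49.5 and 54.6 CPM in CKO and 1.1, 0.153 and 0.441 CPM in WT, Kcnh3 had 141, 94.9 and 108 CPM in CKO and 45.4, 42.8 and 35.2 CPM in WT (1.48, SE 0.23, adjusted p 2.25e-05) and Kcnj15, an inward rectifier gene, had 4.27, 6.74 and 6.88 CPM in CKO and 0.305, 0.458 and 0.294 CPM in WT (4.07, SE 0.56, adjusted p 3.96e-06). Kcnq3 rose by 1.92. Kcnh8 was called lower although its ranges met at 0, with 0, 0.0692 and 0 CPM in CKO and 4.8, 0 and 8.71 CPM in WT. Among 301 solute carrier genes 36 were higher, 58 lower and 207 not called, so 31.2% were called (median -0.22, limma 52 and 53). Slc7a2, a carrier of arginine and lysine, had 9.23, 5.6 and 8.84 CPM in CKO and 125, 58.8 and 117 CPM in WT (-3.67, SE 0.36, adjusted p 2.24e-08). Slc4a3, an anion exchanger gene, had 1.96, 1.52 and 1.15 CPM in CKO and 15.8, 16.6 and 19.9 CPM in WT (-3.49, SE 0.40, adjusted p 3.74e-07). The vesicular glutamate transporter gene Slc17a6 had 0.154, 0.173 and 0.17 CPM in CKO and 8.61, 3.93 and 8.34 CPM in WT, Slc37a1 fell by 4.95, and Slc36a4 had 0 counts in CKO against 96 over the WT group, at least 31.5-fold lower. Zfp zinc finger genes were higher in 36 and lower in 62 of 359 cases, so 27.3% were called (median -0.17, limma 59 and 52). Zfp770 had 1, 0.692 and 1.02 CPM in CKO and 9.37, 12.2 and 11.2 CPM in WT (-3.60, SE 0.28, adjusted p 5.66e-10). Zfp24 had 22.9, 22.3 and 20.2 CPM in CKO and 4.04, 5.76 and 3.64 CPM in WT (2.28, SE 0.29, adjusted p 1.62e-06). Zfp398, Zfp563 and Zfp846 fell by 2.01, 2.56 and 1.77.

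The next comparison asked where the change at FGO 4W differed from the change in the same cell type a week earlier. The difference was called in 592 genes (2.72% of those tested), with the FGO 4W change higher in 240 (1.1%) and lower in 352 (1.62%). These libraries are not shared between the stages, FGO 3W had 2 libraries per genotype and between 42782904 and 49104313 counts each, and age and any unlabelled batch cannot be told apart. Gna14 averaged 338 ± 25.5 CPM in CKO and 98.6 ± 10 CPM in WT at FGO 4W, and 178 CPM in CKO and 155 CPM in WT at FGO 3W, a difference of 1.57 (SE 0.32, adjusted p 0.00408). Kcng2 averaged 57.4 ± 9.55 CPM in CKO and 0.566 ± 0.488 CPM in WT at FGO 4W, and 0.919 CPM in CKO and 0.558 CPM in WT at FGO 3W (5.94, adjusted p 3.91e-05). For both genes the genotype difference was present at 4 weeks and small at 3 weeks. Astl averaged 417 CPM in CKO and 969 CPM in WT at FGO 3W, and the difference between its changes was -1.58 (adjusted p 0.00725). Ago3 differed by -1.24, Mov10l1 by -2.21, Rpl29 by -2.86 and Slc7a2 by -2.60, and Kif16b by -1.20. For some genes the higher genotype was not the same at both ages. Zfp990 averaged 49.9 ± 6.58 CPM in CKO and 6.6 ± 0.712 CPM in WT at FGO 4W, and 0.352 CPM in CKO and 15 CPM in WT at FGO 3W (8.32, adjusted p 2.68e-06). Obox2, an oocyte homeobox gene of a family of copies, averaged 2396 ± 318 CPM in CKO and 979 ± 266 CPM in WT at FGO 4W, where it was not called, and 20.9 CPM in CKO and 1643 CPM in WT at FGO 3W (7.59, adjusted p 4.42e-06). Pramel27, of another oocyte family, averaged 15.5 ± 2.46 CPM in CKO and 332 ± 84.3 CPM in WT at FGO 4W, and 623 CPM in CKO and 0.522 CPM in WT at FGO 3W. Btn1a1, a butyrophilin gene, averaged 6.25 ± 1.68 CPM in CKO and 0.216 ± 0.311 CPM in WT at FGO 4W, and 7 CPM in CKO and 58.5 CPM in WT at FGO 3W (7.90, adjusted p 6.17e-06). Septin9, a septin gene, had 0.769, 5.57 and 0.382 CPM in CKO and 0, 0.343 and 0.0735 CPM in WT at FGO 4W, and averaged 0.0806 CPM in CKO and 6.34 CPM in WT at FGO 3W (10.23, adjusted p 0.0111). Most of its FGO 4W counts were in CKO replicate 2, and its FGO 4W change was not called without CKO replicate 2 or WT replicates 1 and 3, each left out in turn (2.03 to 3.68). Pramel14 averaged 2.38 ± 1.25 CPM in CKO and 7.37 ± 1.65 CPM in WT at FGO 4W, where it was not called, and 47.1 CPM in CKO and 0.0197 CPM in WT at FGO 3W (-12.54, adjusted p 2.81e-06). Gsto2 averaged 0.0283 ± 0.0491 CPM in CKO and 21.1 ± 3.61 CPM in WT at FGO 4W, and 119.9 CPM in CKO and 22.3 CPM in WT at FGO 3W. Of the 36 genes low in WT replicate 2, 11 averaged at most 1/10 of the other WT FGO 4W libraries in WT at FGO 3W, 17 in CKO at FGO 3W, 17 in WT at GO 2W and 11 in CKO at GO 2W.

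**Figure D5:**
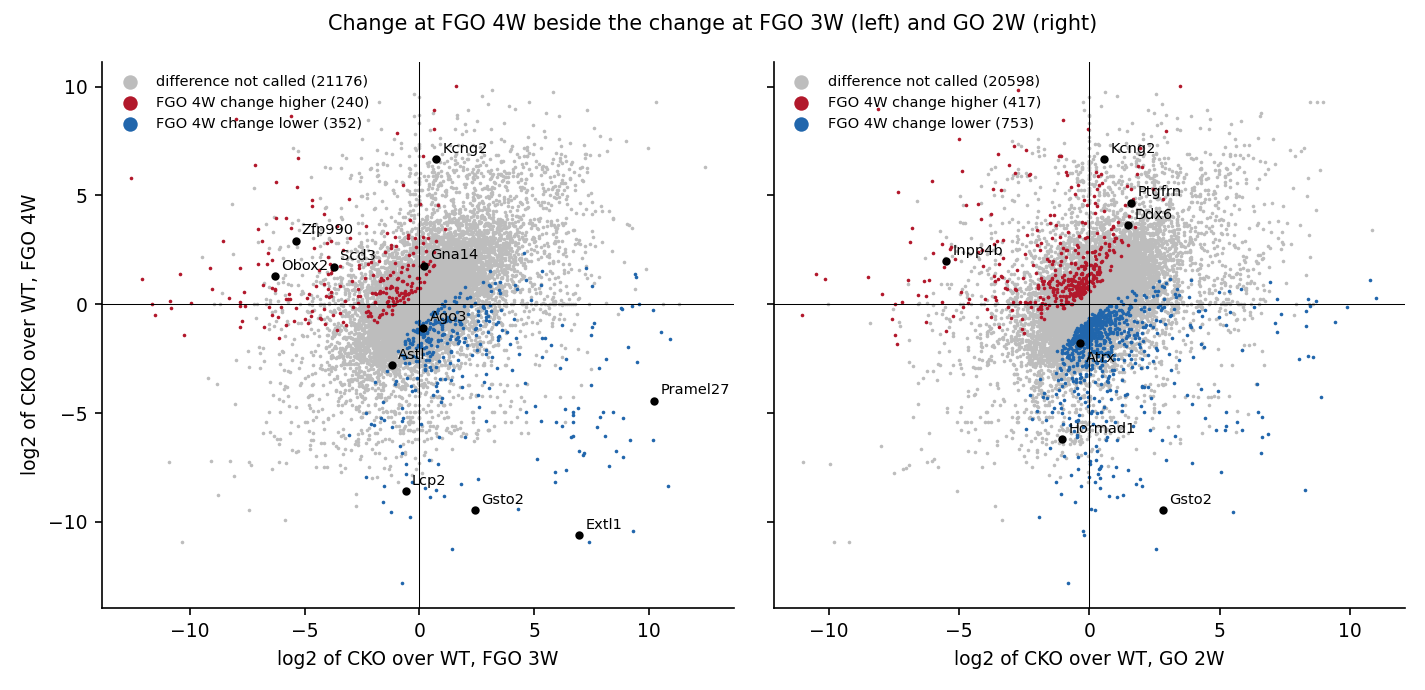
Change of each tested gene at FGO 4W (vertical axis, log2 of CKO over WT) beside its change at FGO 3W (left panel) and GO 2W (right panel) on the horizontal axes, with genes whose difference between the stages was called in red (FGO 4W change higher) and blue (lower). Kcng2 lies high at FGO 4W and near 0 at both other stages, and Gsto2 is low at FGO 4W and above 0 at both.

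Against growing oocytes the difference was called in 1170 genes (5.37%), with the FGO 4W change higher in 417 (1.92%) and lower in 753 (3.46%). Ddx6 averaged 47.9 ± 4.75 CPM in CKO and 3.9 ± 1.18 CPM in WT at FGO 4W, and 12 CPM in CKO and 4.24 CPM in WT at GO 2W, a difference of 2.12 (SE 0.43, adjusted p 0.00265). Atrx averaged 55.7 ± 7.08 CPM in CKO and 194 ± 53.8 CPM in WT at FGO 4W, and 134 CPM in CKO and 172 CPM in WT at GO 2W (-1.44, adjusted p 0.00279). In the egg coat list Zp3 and Astl differed by -1.49 and -2.31, and among repair genes Rpa1 and Fanci by -1.23 and -1.32. Exosc9 averaged 49.4 CPM in CKO and 43.2 CPM in WT at GO 2W, so that its fall of 2.18 at FGO 4W differed by -2.38. Ptgfrn averaged 17.8 CPM in CKO and 5.86 CPM in WT at GO 2W, and its difference was 3.06. Inpp4b, a lipid phosphatase gene, averaged 14.3 ± 4.75 CPM in CKO and 3.66 ± 0.743 CPM in WT at FGO 4W, and 0.0816 CPM in CKO and 3.82 CPM in WT at GO 2W (7.48, adjusted p 6.4e-08). Scd3, a fatty acid desaturase gene, averaged 56.6 ± 12.7 CPM in CKO and 17 ± 4.32 CPM in WT at FGO 4W, and 0.438 CPM in CKO and 21.7 CPM in WT at GO 2W. Sv2c, a synaptic vesicle protein gene, averaged 9.05 ± 0.416 CPM in CKO and 1.72 ± 1.13 CPM in WT at FGO 4W, and 0.0599 CPM in CKO and 1.23 CPM in WT at GO 2W. In the last 3 genes the CKO mean was above the WT mean at FGO 4W and below it at GO 2W. The FGO 4W change of Scd3 was not called without CKO replicates 1, 2 and 3 or WT replicates 1, 2 and 3, each left out in turn (1.54 to 1.96), and that of Sv2c was not called without WT replicate 1 (1.95). Kcnk18, a potassium channel gene, averaged 25.9 ± 1.45 CPM in CKO and 41.5 ± 7.67 CPM in WT at FGO 4W, where it was not called, and 0.177 CPM in CKO and 34.7 CPM in WT at GO 2W (6.89, adjusted p 0.000311).

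Genes were last grouped by how WT oocytes treat them, with libraries that the FGO 4W contrast does not use. Both sets of calls come from the same fit and share its spread per gene. A gene with little spread or many counts is therefore more easily called in both, and the shares below are not independent of the grouping. Among 3389 genes called and at least 2-fold higher in WT metaphase II oocytes than in WT FGO 3W 12.4% were higher and 22.2% lower in CKO at FGO 4W. Among 5693 genes at least 2-fold lower at metaphase II, 11.6% were higher and 16.7% lower, and among the 12686 others 11.7% and 11.9%. The median changes of these 3 sets were -0.11, -0.10 and 0.09. The sets were not matched for level, and the share called lower also went with level, from 4.69% under 1 CPM to 27.1% at 100 CPM or more. Fewer genes passed the same rule between WT FGO 3W and WT GO 2W. Of the 134 that were higher at FGO 3W 35 (26.1%) were higher and 30 (22.4%) lower in CKO at FGO 4W. Of the 64 lower at FGO 3W 15 (23.4%) were higher and 16 (25%) lower. Among the 21570 others 11.7% were higher and 14.7% lower.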

How the data were processed

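Oocytes were pooled 10 to a tube and sequenced by Smart-seq2, and the 6 FGO 4W libraries compared here hold 3 CKO and 3 WT tubes. Per the submitters' processing notes, the authors used Trim Galore, FastQC, HISAT2, SAMtools and featureCounts with mm10, with no versions. The deposited counts are whole numbers per gene, and the deposited FPKM are the authors' values, relative to gene length and library total. The treatment of multi-mapped reads and the strand setting are not given in the sources used here. In small counts 81% of values were even, so both ends of a pair appear to be counted, and counts are not independent molecules. Intervals and floors cover counting error only, and all 29 per-sample columns matched the labels.

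edgeR 4.0.16 (R 4.3.3) tested the counts with TMM factors (1.05 to 1.26 at FGO 4W), filterByExpr at a minimum count of 10 and 1 quasi-likelihood model of 10 groups over 29 libraries with trended dispersion (19 residual degrees of freedom). P-values were adjusted over 21768 genes by Benjamini-Hochberg. Differences between stages are interaction contrasts of the same model. Floors are 3 counts over a group. The alternatives were RLE size factors, other filters, 1 dispersion, the compared libraries alone, a replicate block, DESeq2 1.42.0, limma 3.58.1 on log2(FPKM + 1) and log2(FPKM + 0.1) with a mean FPKM of at least 0.1, and each library left out. Figures used matplotlib 3.10.9.

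Named genes are Dhx36, the 10 called genes that rose most and the 10 that fell most, given a mean of 5 CPM or more in 1 genotype, no overlap of the genotypes and no clone or predicted name, the 6 most abundant that rose and the 6 that fell at least 2-fold, the 5 highest and 5 lowest differences from each other stage, up to 5 members of each list by adjusted p, and members with central roles. Some further genes were chosen after their values were seen. Members and lists were chosen with earlier results of these data known. 1 gene that the rule names is not reported here.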

Additional observations from a re-analysis of the deposited data

Results flagged for a closer look

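For the genes below the change at FGO 4W (log2 of CKO over WT) differed from the change at another stage, with an edgeR adjusted p under 0.05 over all tested genes. Each value is the FGO 4W change minus that of the other stage, so a positive one means a higher change at FGO 4W. No cause was tested.

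In the egg coat and cortical granule list Zp3 differed from GO 2W by -1.49, and Astl by -2.31 from GO 2W and -1.58 from FGO 3W. Among growth signals the values from GO 2W were -1.44 for Fgf8 and -0.70 for Kit, among transcription factors -1.93 for Gtf2a1l and -1.43 for Sp110, and Nlrp4a had -0.85.

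Genes of meiotic chromosomes and the cytoskeleton also had negative differences from GO 2W. Hormad1 averaged 0.352 CPM in CKO and 25.5 CPM in WT at FGO 4W, and 0.356 CPM in CKO and 0.73 CPM in WT at GO 2W (-5.15). The cohesin gene Smc1b averaged 4.93 CPM in CKO and 18.7 CPM in WT at FGO 4W, and 43.2 CPM in CKO and 23.7 CPM in WT at GO 2W (-2.80). Tuba3a, Spire1 and the kinesin gene Kif1b had -1.45, -1.25 and -0.94. Kif16b differed from FGO 3W by -1.20.

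RNA genes went both ways. Ddx6, Smg5, Sf3b4 and Tra2b had positive differences from GO 2W, 2.12, 2.25, 1.20 and 0.60. Exosc9, Ago2, Mael and Mov10l1 had negative ones, -2.38, -1.24, -0.85 and -1.77, and so had the polymerase genes Polr3c and Polr3f, -1.06 and -1.07. From FGO 3W, Mov10l1 differed by -2.21 and Ago3 by -1.24.

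Rpl29 averaged 2.6 CPM in CKO and 27.2 CPM in WT at FGO 4W, and 17 CPM in CKO and 24.5 CPM in WT at FGO 3W (-2.86), and differed by -4.10 from GO 2W. Of mitochondrial ribosomal genes Mrps26 had 1.01 and Mrps23 -1.05 against GO 2W. Repair and chromatin genes had negative differences from GO 2W: Rpa1 -1.23, Fanci -1.32 and Atrx -1.44. The same held for Apaf1 (-1.26), Ctsd (-1.04), Uggt1 (-1.23), G6pdx (-0.68) and Stim2 (-1.59). Positive were Hsp90b1 (1.05), Sqstm1 (1.02), Gsta4 (1.58), Ifrd1 (1.37) and Ptgfrn (3.06).

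Carriers and channels had some of the widest differences. Slc7a2 averaged 7.89 CPM in CKO and 100.3 CPM in WT at FGO 4W, and 28.3 CPM in CKO and 59.5 CPM in WT at FGO 3W (-2.60), and differed by -4.13 from GO 2W. Slc17a6 differed by -4.62 from FGO 3W and -4.90 from GO 2W, Slc37a1 by -3.50 and Slc4a3 by -3.27 from GO 2W. Kcng2 differed by 5.94 from FGO 3W and 6.09 from GO 2W, and Gna14 by 1.57 and 1.59.

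Zinc finger genes were on both sides. Zfp990 differed from FGO 3W by 8.32, Zfp770 by -1.65 and Zfp846 by -1.35, and from GO 2W Zfp24 differed by 1.62, Zfp398 by -1.55, Zfp770 by -3.07 and Zfp846 by -1.29. Of families with similar copies, Obox2 differed by 7.59 and Pramel27 by -14.63 from FGO 3W, and Pramel27 by -4.80 and Usp17lb by 4.50 from GO 2W. Pramel14, under 0.1 CPM in WT at FGO 3W, differed from FGO 3W by -12.54. Btn1a1 had 7.90 against FGO 3W and 3.15 against GO 2W, Septin9 10.23 against FGO 3W and Kcnk18 6.89 against GO 2W. Scd3 had 5.44 against FGO 3W and 7.33 against GO 2W, and Inpp4b, Sv2c and Iqub had 7.48, 6.67 and 5.01 against GO 2W.

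In 5 genes the difference involves libraries that stood apart from their group. Stk32a, low in WT replicate 2, averaged 0.0165 CPM in CKO and 92.4 CPM in WT at FGO 3W, and 0.0661 CPM in CKO and 83.2 CPM in WT at GO 2W, and differed by 13.24 from FGO 3W and 11.31 from GO 2W. Tex15, low in the same library, differed by -6.76 from FGO 3W and -7.95 from GO 2W, and Slc35d2, high in CKO replicate 3, by 9.19 and 4.22. Defb8 and Tktl2, both low in WT replicate 2 and with 0 and 2 counts in CKO at FGO 4W, differed from FGO 3W by -18.31 and -9.38, and Tktl2 differed from GO 2W by -7.85.

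For these 2 genes and others with 0 to 2 counts in CKO at FGO 4W the fitted differences depend on the prior count and are no bounds. From FGO 3W the others had -17.55 for Extl1, -14.05 for Slc36a4, -12.64 for Iqcf1, -11.89 for Gsto2, -9.26 for Skint5 and -7.99 for Lcp2. From GO 2W they had -16.81 for Skint5, -13.78 for Iqcf1, -12.28 for Gsto2, -10.39 for Extl1 and -8.36 for Slc36a4.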

How the results depend on the processing

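No named gene changed sign between the main fit and an alternative where either of them called it. Sign changes of genes called in neither were not counted. Of the 225 named genes that were called, 195 stayed called the same way under every alternative that tested them. The counts of genes higher and lower in CKO were 2567 and 3215. They were 2778 and 2903 with RLE size factors, 2744 and 2798 with no filter (36715 genes tested), 2500 and 3119 at a minimum count of 50, 3461 and 3565 on the 6 libraries alone, 3213 and 3313 with DESeq2, and 4192 and 2734 with limma on log2(FPKM + 1). With limma on log2(FPKM + 0.1), where the median change of all genes was 0.134, they were 3743 and 2493. Leaving out 1 library gave 1883 to 2184 genes higher and 2428 to 2689 lower. Of the differences between stages, 592 genes differed from FGO 3W. That count was 1005 with no filter, 1310 on the compared libraries alone, 1113 with DESeq2, 1258 with limma on log2(FPKM + 1) and 470 to 598 with 1 library left out. From GO 2W 1170 genes differed, and 2938 on the compared libraries alone, 1809 with DESeq2, 2175 with limma on log2(FPKM + 1) and 821 to 1059 with 1 library left out. The cause was not tested. The change of Dhx36 was 0.31, and it was called on the 6 libraries alone (0.38) and with the replicate block (0.38). It was 0.27 to 0.37 with 1 library left out. With 1 library left out, a count of higher or lower members moved by over 1.5 times in 27 of the 37 lists, and the balance of calls turned in 5: granulosa, cumulus and theca markers (1 higher, 2 lower) and decay genes (6 and 7) without CKO replicate 1, chromatin regulators (8 and 7) and apoptosis genes (5 and 4) without CKO replicate 3, and stress response genes (3 and 4) without WT replicate 3. The balance also turned with RLE size factors for RNA polymerase subunits (9 and 7) and mitochondrial ribosomal proteins (9 and 8), with DESeq2 for chromatin regulators (12 and 9) and G-quadruplex proteins (9 and 8), at a minimum count of 50 for chromatin regulators (10 and 9), with no filter for oocyte transcription factors (8 and 5), RNA polymerase subunits (7 and 5) and G-quadruplex proteins (9 and 8), on the 6 libraries alone for oocyte transcription factors (7 and 5) and G-quadruplex proteins (14 and 12), and with the replicate block for the same lists (9 and 5, 12 and 11). With limma it turned in 12 lists. Replicate numbers did not pair the samples: deviations of same-numbered CKO and WT libraries correlated at -0.262, 0.0985 and 0.0474 over 4824 genes, and not every library correlated best with its own number. With the replicate block 3041 genes were higher and 3110 lower, and 746 genes differed from FGO 3W and 2350 from GO 2W. Genes with a few counts have wide errors at this depth. The deposited table holds 0 spike-in rows, so total RNA per oocyte was not measured.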

Other observations

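Small nucleolar RNA genes were seldom called, 5.26% of 76 tested genes by edgeR, beside 26.6% of all tested genes. Transcribed pseudogenes were higher in CKO in 16 and lower in 24 of 228 cases.

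Called genes lay on every chromosome with at least 100 tested genes. The share ran from 22.3% of 998 genes on chromosome 17 to 30.5% of 665 genes on chromosome 16, and on the X chromosome 96 of 813 genes were higher and 123 lower in CKO. Lower calls outnumbered higher ones on 18 of these 20 chromosomes in the edgeR fit with TMM factors. On chromosome 2, 220 genes were higher and 208 lower in CKO, and on chromosome 16, 102 and 101.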
